A study of Mus musculus with 12 samples.

Results

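The data describe a small set of abundant noncoding RNAs in the immune cell fraction of mouse liver: the 7SK RNA gene Rn7sk, the 7SL RNA genes Rn7s1, Rn7s2 and Rn7s6, the RNA subunits Rmrp and Rpph1 of RNase MRP and RNase P, and the long nuclear RNAs Malat1 and Neat1. The members were chosen by their measured share of the TPM, a length-scaled measure of transcript abundance, in these same libraries and by their class, so their levels are given as a description and without a test. Of the 8 genes listed, 7 had values among the 40840 genes of the files, and Rn7s6 was not analysed here. These 7 comprise 5 short structured RNAs and 2 long nuclear RNAs.

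Total RNA was sequenced from 12 male mice, 3 in each of 4 groups: wild-type (WT) C57BL/6J mice on normal chow diet (WT-NCD), WT mice on high-fat diet (WT-HFD), and caspase-11 knockout mice on each diet (Casp11-/- NCD and Casp11-/- HFD). The knockout strain carries the Casp4tm1Yuan allele in every cell, on a B6.129S4(D2) background. Mice were 8 to 10 weeks old when the diets began and stayed on them for 12 weeks. The fraction was labelled hepatic macrophages and was made by density centrifugation of digested liver, without a sort for macrophages. No agent other than the diets was given to these groups.

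These RNAs belong to a few well known machines. 7SK is a polymerase III transcript that holds the elongation kinase P-TEFb, a complex of Cdk9 with cyclin T, in an inactive particle with Hexim and Larp7 proteins. 7SL is the scaffold of the signal recognition particle, which directs secreted and membrane proteins to the endoplasmic reticulum, and the RNAs of RNase P and RNase MRP are the catalytic parts of enzymes that mature tRNA and ribosomal RNA precursors. Malat1 accumulates in nuclear speckles and Neat1 builds paraspeckles, and both are made by polymerase II.

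Sequences were taken from GENCODE transcripts on GRCm38, the build of the files, and are printed 5′ to 3′ as DNA. Rn7sk lies at chr9:78175303-78175633 on the minus strand as a single exon of 331 bases. The opening 100 bases, shown because Hexim proteins bind GATC (GAUC in RNA) repeats of 7SK, hold the motif 3 times, at positions 13, 42 and 64 counted from the 5′ end, and capitals mark it:
Rn7sk: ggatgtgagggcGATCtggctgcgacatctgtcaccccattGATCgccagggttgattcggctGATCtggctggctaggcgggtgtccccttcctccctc
The motif reads the same on both strands. At least 1 copy occurred in 63.3% of the 5627 GENCODE transcripts of 250 to 350 bases, and 3 or more occurred in 7.50%.

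Rn7s1 and Rn7s2 are both on chromosome 12, and their annotated transcripts had an identity of 100%. A read from within them cannot be assigned to a single gene of the pair, and how the authors' counting split such reads is not given in the sources used here. The individual values of Rn7s1 and Rn7s2 are therefore uncertain, and their sum is called 7SL below. The sum does not depend on how reads were split between the genes. If a read was counted at both genes, the sum and the members' total share would be too high.

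The remaining short members also lie on single exons. Rmrp is at chr4:43492788-43493058 and Rpph1 at chr14:50807449-50807767, both on the minus strand. A slightly longer noncoding gene record of the name Rmrp covers the same bases, and how its reads were counted is not given in the sources used here. Malat1 (chr19:5795690-5802672) and Neat1 (chr19:5824708-5845480, by RefSeq) are neighbours on the minus strand of chromosome 19, and RefSeq gives them lengths of 6983 and 20773 bases. TPM divides by length, so a short RNA gains TPM over a long one with the same number of reads.

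The depth of the libraries has to be known before the values can be read. In 11 libraries the values could be turned back into whole reads (99.9% to 100% of the genes under 100 reads were whole within 0.05), and these libraries held 1782506 to 11822159 reads in genes, of which 179671 to 1855604 belonged to the members. WT-NCD replicate 3 stood apart. Its values were nearly a constant divided by gene length, as a library nearly without reads would give, and the members held 0.0221% of its TPM against 19.4% to 65.2% in the other libraries. Values are therefore given for 11 libraries, 5 on NCD and 6 on HFD, and the 12-library values are added where they differ. Counting error was small: the widest 95% Wilson interval of a share of reads reached 1.32% of the share on either side for Rn7sk and 6.69% for Neat1, and such intervals cover counting error only. The 5 shallowest libraries, with the lowest read totals, were HFD libraries.

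Marker lists of 6 cell types were summed to show what the fraction held. Kupffer cell markers (10 genes) summed to 49.6 to 142 TPM on NCD and 264 to 860 TPM on HFD, while hepatocyte markers (7 genes) summed to 6218 to 23161 TPM on NCD and 8678 to 17659 TPM on HFD. Hepatocyte RNA was thus present in the fraction. Sums of different marker lists do not measure how much RNA each cell type gave. B cell markers (7 genes) summed to 1266 to 5765 TPM on NCD and 405 to 1049 TPM on HFD, and 4 of the 7 passed the test as lower on HFD in each genotype over 11 libraries. Of the Kupffer cell markers, 7 of 10 passed as higher on HFD in WT mice and 5 of 10 in Casp11-/- mice. T cell markers (7 genes) summed to 120 to 477 TPM on NCD and 61.0 to 186 TPM on HFD, and 0 of 7 passed in either genotype, with 4 and 7 at an unadjusted p under 0.05. Of all genes, 2.18% passed for diet in WT mice and 1.1% in Casp11-/- mice over 11 libraries. An unadjusted p under 0.05 was found for 15.2% and 27% of all genes. Sinusoidal endothelial markers (7 genes) summed to 112 to 651 TPM on NCD and 352 to 1719 TPM on HFD, and 1 of these, Lyve1, passed as higher on HFD, in Casp11-/- mice. Neutrophil markers (7 genes) summed to 286 to 974 TPM on NCD and 110 to 4273 TPM on HFD, where they varied most between libraries, and 0 of 7 passed. Casp4, the targeted gene, had 12.1 and 15.6 TPM in WT-NCD, 7.09, 5.60 and 11.4 in WT-HFD, 4.93, 2.56 and 15.2 in Casp11-/- NCD, and 2.78, 8.68 and 4.73 in Casp11-/- HFD. The genotypes overlapped, and since a gene-level value cannot show whether the deleted exons were covered, it does not check the genotype labels. Group names below follow the labels. In bulk RNA, fewer cells of a type and less RNA per cell cannot be told apart.

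Together the members took a large share of every library with reads. They held 48.3% and 46.7% of the TPM in WT-NCD replicates 1 and 2, and 40.8%, 19.4% and 25.9% in the WT-HFD libraries. In Casp11-/- NCD they held 49.4%, 65.2% and 40.6%, and in Casp11-/- HFD 20.9%, 39.3% and 46.6%. The share was 50.0% on average over the 5 NCD libraries and 32.1% over the 6 HFD libraries, and the diets overlapped. By reads rather than TPM, the members took 9.94% to 25.3% of a library.

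The denominator moved with diet. U3 small nucleolar RNA, which guides early cleavage of ribosomal RNA precursors and is counted here as 5 Snord3 genes, held 1.24% to 4.84% of the TPM on NCD and 25.8% to 58.5% on HFD, with means of 2.99% and 40.2%. Since TPM adds up to a fixed total, each other RNA has less room in the HFD libraries. Each member is therefore also given as a share of TPM without U3, per 1000 TPM of protein-coding genes, and as a share of reads. Without U3 the members held 41.8% to 68.5% of the TPM on NCD (mean 51.7%) and 44.3% to 62.7% on HFD (mean 52.4%), so the lower summed share on HFD was not seen on that scale. How far cell composition or library depth, which also moved with diet, took part in any member's difference was not tested.

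**Figure D1:**
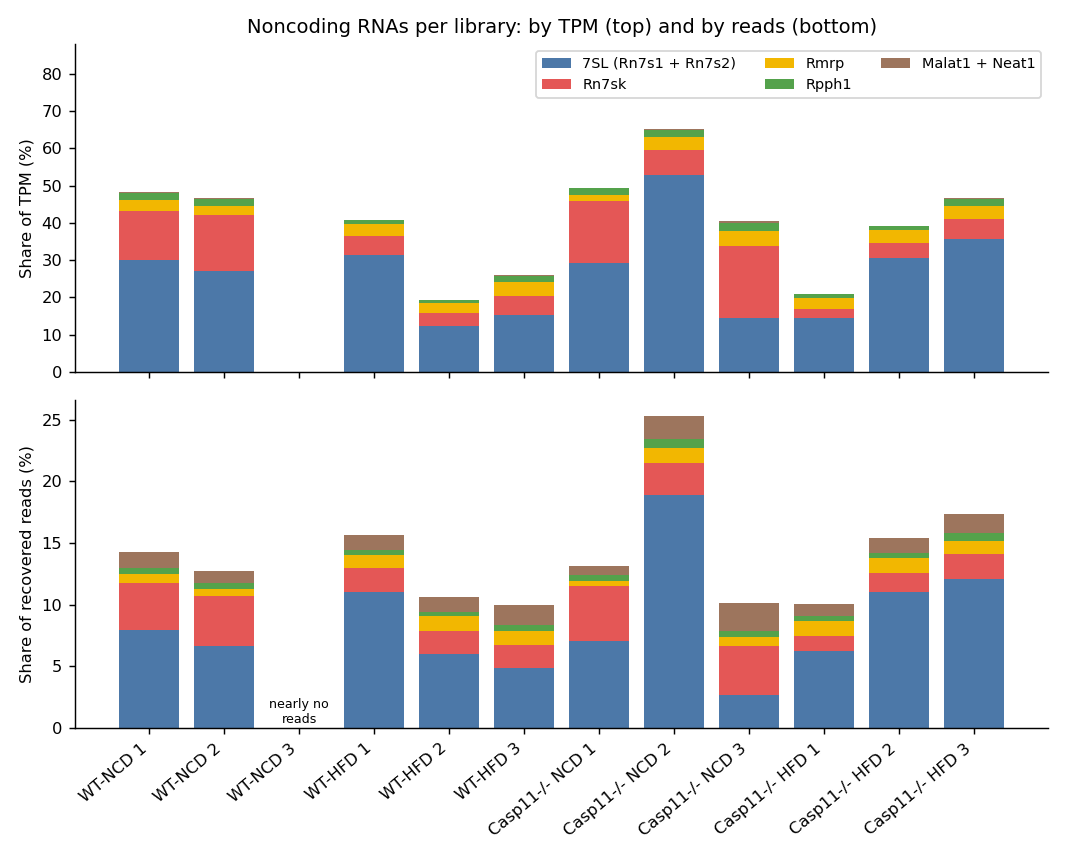
Share of TPM (percent, upper y axis) and of recovered reads (percent, lower y axis) held by 7SL, Rn7sk, Rmrp, Rpph1 and the sum of Malat1 and Neat1 in each library (x axis), as stacked bars. The stacks reach 40.6% to 65.2% of the TPM in the 5 NCD libraries with reads and 19.4% to 46.6% in the 6 HFD libraries, 7SL forms the largest part in most of them, and WT-NCD replicate 3 is near 0.

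Rn7sk, the 7SK RNA, was the member whose level differed most between diets. Its TPM was 133918 and 153305 in WT-NCD replicates 1 and 2 and 50674, 35218 and 51631 in WT-HFD. In the Casp11-/- groups it was 170803, 68319 and 195531 on NCD and 25835, 38886 and 54426 on HFD. The lowest NCD library with reads, Casp11-/- NCD replicate 2, lay above the highest HFD library, so the diets did not overlap.

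As a share of TPM, Rn7sk held 14.1% ± 1.34 (SD, n = 2) in WT-NCD and 4.50% ± 0.908 (SD, n = 3) in WT-HFD. It held 14.2% ± 6.64 (SD, n = 3) in Casp11-/- NCD and 3.89% ± 1.39 (SD, n = 3) in Casp11-/- HFD. The mean share was 3.38-fold higher on NCD over both genotypes. Its rank among the genes was 1 or 3 in the NCD libraries and 5 or 6 in the HFD libraries.

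Other denominators made the difference smaller. Per 1000 protein-coding TPM, Rn7sk had 387 and 397 in WT-NCD, 203, 220 and 201 in WT-HFD, 456, 300 and 454 in Casp11-/- NCD, and 132, 163 and 233 in Casp11-/- HFD. These values also did not overlap between diets, and the ratio of the means was 2.08. As a share of reads, Rn7sk took 2.66% to 4.50% on NCD (mean 3.81%) and 1.22% to 1.998% on HFD (mean 1.72%), a ratio of 2.21 without overlap. Without U3 in the total it held 7.03% to 19.8% on NCD and 5.39% to 8.67% on HFD, a ratio of 2.07, and the diets overlapped through Casp11-/- NCD replicate 2.

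**Figure D2:**
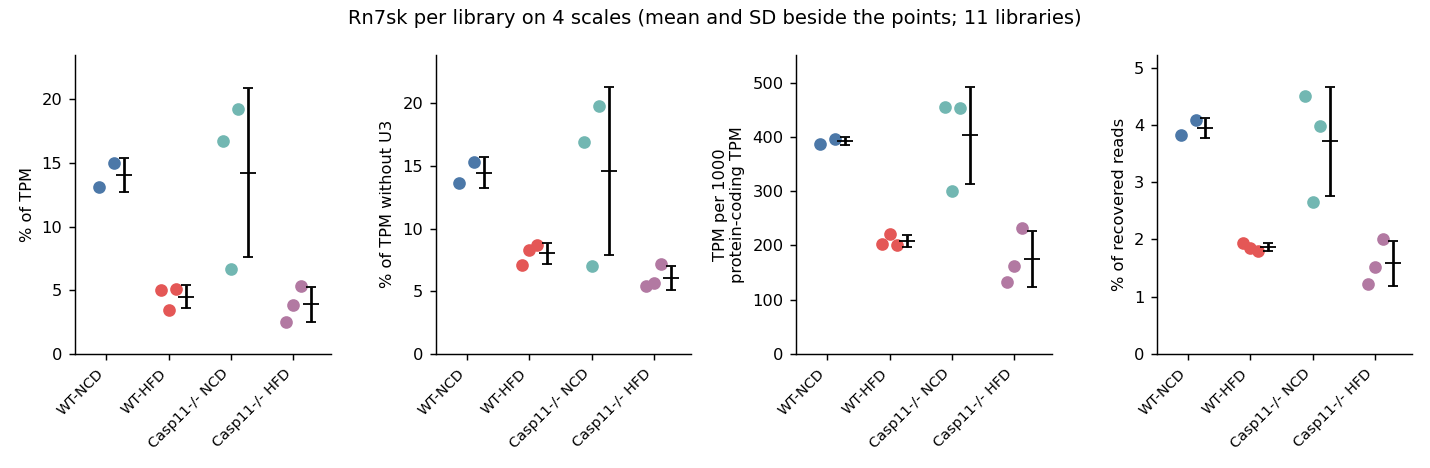
Rn7sk in each of the 11 libraries with reads (points, with the group's mean and SD beside them) on 4 scales (y axes): percent of TPM, percent of TPM without U3, TPM per 1000 protein-coding TPM, and percent of recovered reads, by genotype and diet (x axis). The diets overlap on the scale without U3 and on no other of the 4 scales, since the Casp11-/- NCD library at 7.03% lies there among the HFD libraries, which reach 8.67%.

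Many genes separated the diets in the same way. Among 19498 genes, 5.16% were lower in each of the 6 HFD libraries than in each of the 5 NCD libraries by TPM, and Rn7sk was the 1 member of 7 that did so. Over protein-coding TPM the share of genes was 3.2%, and over reads it was 6% of 9729 genes, again with Rn7sk as the 1 member. Without U3 it was 0.328%, with 0 of the 7 members. Since these libraries chose the members, nothing is read from these counts.

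The log2 differences of Rn7sk, HFD minus NCD, were negative in both genotypes on each of 4 scales over 11 libraries. In WT mice they were −1.67 by log2(TPM + 1), −0.85 without U3, −0.91 over protein-coding genes and −1.08 by reads. In Casp11-/- mice they were −1.79, −1.15, −1.21 and −1.27 on the same scales. The median difference of all genes by TPM was −0.27 in WT and −0.51 in Casp11-/- mice. With WT-NCD replicate 3 kept, the WT difference of Rn7sk turned to 2.26, so the 12-library value rests on that library.

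Taken as this sum, 7SL RNA had the largest share among the members on average and varied widely within groups. The sum of Rn7s1 and Rn7s2 held 30.1% and 27.2% of the TPM in WT-NCD, 31.5%, 12.4% and 15.3% in WT-HFD, 29.1%, 52.8% and 14.5% in Casp11-/- NCD, and 14.4%, 30.7% and 35.8% in Casp11-/- HFD. The widest gap within a group was between Casp11-/- NCD replicates 2 and 3, and the diets and genotypes overlapped. In Casp11-/- NCD the mean was 32.1% ± 19.3 (SD, n = 3), and in WT-HFD it was 19.7% ± 10.3 (SD, n = 3).

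By gene, Rn7s1 had 63394 to 160033 TPM in WT-HFD and 73682 to 259069 in Casp11-/- NCD, and Rn7s2 had 63127 to 160366 and 73322 to 279989. The ratio of Rn7s1 to Rn7s2 was 0.944 and 0.929 in WT-NCD, 0.998, 1.004 and 1.018 in WT-HFD, 0.934, 0.925 and 1.005 in Casp11-/- NCD, and 1.09, 0.986 and 0.965 in Casp11-/- HFD. The pair thus stayed near a ratio of 1 in each library, and the genes hold the same sequence. In log2 terms Rn7s1 differed between diets by −0.61 by TPM in WT mice and by 0.20 without U3, so its sign depended on the denominator. In Casp11-/- mice the values were −0.12 and 0.53.

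Rmrp, the RNA of RNase MRP, did not share the pattern of Rn7sk. Its TPM was 31151 and 23955 in WT-NCD, 33318, 28037 and 39623 in WT-HFD, 17439, 36764 and 41019 in Casp11-/- NCD, and 30027, 36333 and 33923 in Casp11-/- HFD. The lowest and the highest value were both from Casp11-/- NCD, and the diets overlapped. Without U3, Rmrp held 1.73% to 4.16% of the TPM on NCD (mean 3.05%) and 4.47% to 6.65% on HFD (mean 5.66%), without overlap. On that scale 15.8% of all genes were higher in each HFD library than in each NCD library, and Rmrp was the 1 member of 7 among them. Its log2 differences between diets were positive on each of 4 scales, from 0.29 to 1.10 in WT mice and from 0.16 to 0.81 in Casp11-/- mice.

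Rpph1, the RNA of RNase P, was lower on average on HFD by TPM. It had 18781 and 19852 TPM in WT-NCD, 9515, 6869 and 14604 in WT-HFD, 17306, 20088 and 23706 in Casp11-/- NCD, and 9515, 11044 and 19921 in Casp11-/- HFD. The Casp11-/- HFD replicate 3 value was within the NCD range. As a share of reads Rpph1 took 0.446% to 0.765% on NCD and 0.354% to 0.716% on HFD, nearly the same range. Its log2 differences ranged from −0.97 to −0.16 over the scales in WT mice and from −0.66 to −0.01 in Casp11-/- mice.

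Ratios between members do not depend on the denominator. Rn7sk over Rmrp was 4.30 and 6.40 in WT-NCD, 1.52, 1.26 and 1.30 in WT-HFD, 9.79, 1.86 and 4.77 in Casp11-/- NCD, and 0.860, 1.07 and 1.60 in Casp11-/- HFD. The means were 5.42 on NCD and 1.27 on HFD, and the diets did not overlap, although Casp11-/- NCD replicate 2 at 1.86 lay close to the highest HFD library at 1.60. Rn7sk over Rpph1 was 3.40 to 9.87 on NCD and 2.72 to 5.33 on HFD, with overlap. Within HFD this ratio was 3.54 to 5.33 in WT mice and 2.72 to 3.52 in Casp11-/- mice, so the genotypes nearly touched. How often ratios of other genes separate diets or genotypes was not counted, so nothing is read from the separations of these ratios. Rmrp over Rpph1 was 1.01 to 1.83 on NCD and 1.70 to 4.08 on HFD, with overlap through Casp11-/- HFD replicate 3. Rn7sk over 7SL was 0.127 to 1.33 on NCD and 0.124 to 0.331 on HFD, with overlap.

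**Figure D3:**
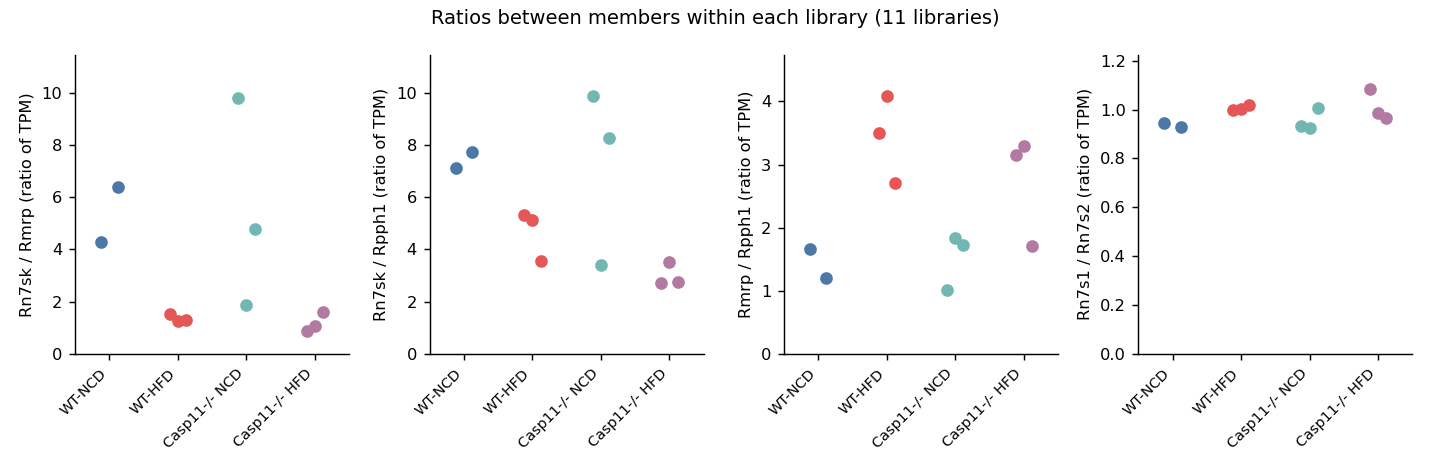
Ratios of TPM between members (y axes) in each of the 11 libraries with reads, by genotype and diet (x axis). Rn7sk over Rmrp separates the diets, with 1.86 to 9.79 on NCD and 0.860 to 1.60 on HFD, while the diets overlap for Rn7sk over Rpph1 and Rmrp over Rpph1, and Rn7s1 over Rn7s2 stays between 0.925 and 1.09.

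Malat1 was far less abundant per length than the short members. Its TPM was 2075 and 1636 in WT-NCD, 1455, 1036 and 2079 in WT-HFD, 1391, 1723 and 5177 in Casp11-/- NCD, and 943, 1361 and 1804 in Casp11-/- HFD. Casp11-/- NCD replicate 3 was the highest by more than the range of the others, and the diets overlapped. Malat1 took 0.771% to 2.22% of the reads on NCD and 0.937% to 1.53% on HFD, more than Rpph1 in each library although its TPM was lower, since it is longer. Per 1000 TPM of Rn7sk, Malat1 had 8.14 to 26.5 on NCD (mean 17.2) and 28.7 to 40.3 on HFD (mean 33.8), without overlap. That ratio has the values of Rn7sk as its denominator, and how often other ratios separate the diets was not counted.

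Neat1 was the scarcest member. It had 27.4 and 35.8 TPM in WT-NCD, 22.9, 21.0 and 33.2 in WT-HFD, 18.2, 184.5 and 62.2 in Casp11-/- NCD, and 16.3, 46.0 and 35.8 in Casp11-/- HFD. Casp11-/- NCD replicate 2, the library with the highest 7SL share, was also the highest for Neat1, and the groups overlapped. Its reads, 858 to 30671 per library, rest on its RefSeq length, since WT-NCD replicate 3, from which the other lengths were taken, lists it at the lowest value of the files. Malat1 over Neat1 by TPM was 9.34 in Casp11-/- NCD replicate 2 and 29.6 to 83.2 in the other 10 libraries, so the 2 neighbouring genes did not keep a fixed ratio. For lack of a length from the files, Neat1 was left out of limma-voom.

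**Figure D4:**
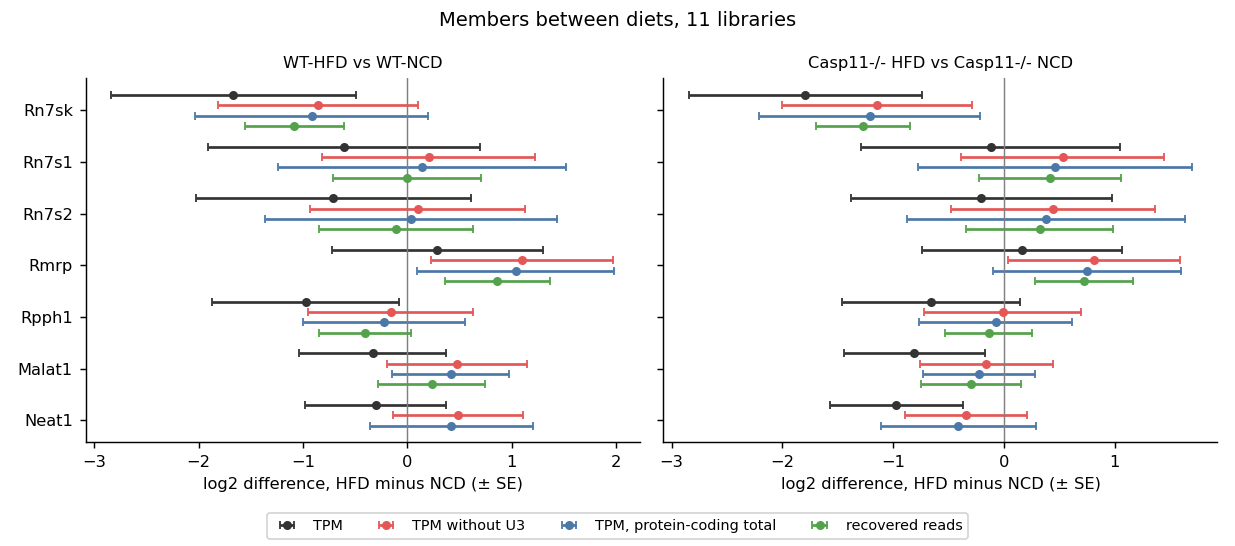
Log2 difference of each member between diets (HFD minus NCD, x axis) in WT and Casp11-/- mice over 11 libraries, on several scales. Rn7sk lies below 0 and Rmrp above 0 on each scale in both genotypes, with Rn7sk between −1.79 and −0.85 and Rmrp between 0.16 and 1.10, while Rn7s1 and Rn7s2 change sign with the scale.

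Between genotypes the levels of each member overlapped within each diet. On NCD, Casp11-/- minus WT over 11 libraries, the log2 difference of TPM was −0.12 for Rn7sk, −0.01 for Rn7s1, 0.12 for Rmrp, 0.07 for Rpph1, 0.33 for Malat1 and 0.91 for Neat1. The Neat1 value includes the single high library named above. On HFD the differences were −0.25 for Rn7sk, 0.47 for Rn7s1, 0.38 for Rpph1, −0.15 for Malat1 and 0.24 for Neat1. With WT-NCD replicate 3 kept, the NCD differences of the 7 members rose to between 2.25 and 3.86.

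The members' levels were also set against each other across libraries. Over 11 libraries, which share groups and denominators, Pearson's r of log2(TPM + 1) was 0.998 for Rn7s1 with Rn7s2, 0.779 for Rn7sk with Rpph1, 0.725 for Rpph1 with Malat1, 0.661 for Rn7sk with Malat1, 0.168 for Rn7sk with Rn7s1 and −0.311 for Rn7sk with Rmrp. The polymerase III members thus did not move as a single block. Among 10145 genes above the lowest value in each of these libraries, the genes most like Rn7sk were S1pr4 (r = 0.993), a sphingosine 1-phosphate receptor of leukocytes, Lrrc61 (0.990) and Lias (0.990), the lipoic acid synthase. S1pr4 ran from 12.6 to 48.7 TPM on NCD and from 4.69 to 10.8 TPM on HFD. The genes most like Malat1 were Macf1 (0.976), a cytoskeletal crosslinker, Tsc22d2 (0.969) and Akap9 (0.964), a kinase anchor. For Rn7s1 they were Hsd17b2 (0.871), Selenbp1 (0.869) and Cpn1 (0.868), and for Rmrp Gm41607 (0.844), Gm26175 (0.823) and LOC115488402 (0.820). These correlations describe 11 libraries and carry no test.

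The genes around the members were tested, since their values did not choose the members. The gene lists were chosen with earlier results of these data known, so these tests are not independent of the data. Groups were compared with limma on log2(TPM + 1), and p-values were adjusted over all genes tested by the method of Benjamini and Hochberg, with a call at 0.05. Over 12 libraries, 0.113% of the 19498 genes were called for diet in WT mice (22 genes). The other 4 comparisons, which were diet in Casp11-/- mice, genotype on NCD, genotype on HFD and the interaction, gave 0 calls each (0%), while 1653, 293, 30 and 154 genes had an unadjusted p under 0.05. Over the 11 libraries with reads, calls were 2.18% of 17950 genes for diet in WT mice, 1.1% for diet in Casp11-/- mice, 0.0557% for genotype on NCD, 0% for genotype on HFD and 0.00557% for the interaction. An unadjusted p under 0.05 was found in that fit for 15.2% of all genes for diet in WT mice and 27% in Casp11-/- mice, and the counts at that threshold in the lists below are to be read against these shares. By limma-voom on the reads, 2.53% of 9728 genes were called for diet in WT mice and 3.76% in Casp11-/- mice, with 1, 0 and 0 genes in the other comparisons.

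Proteins of the 7SK particle and P-TEFb made up a list of 7 genes, Larp7, Mepce, Hexim1, Hexim2, Cdk9, Ccnt1 and Ccnt2. With limma, 0 of the 7 passed for diet in either genotype over 11 or 12 libraries. Over 11 libraries the median log2 difference was −0.95 in WT mice, where 0 had an unadjusted p under 0.05, and −0.96 in Casp11-/- mice, where 2 had (against 15.2% and 27% of all genes). Larp7, which protects the 3′ end of 7SK, had 8.19 and 8.44 TPM in WT-NCD and 3.75, 2.04 and 6.73 in WT-HFD, a log2 difference of −0.95 (limma, 11 libraries, adjusted p = 0.371). Hexim1, the inhibitor of P-TEFb, had 10.5 and 17.1 TPM in WT-NCD and 5.97, 2.52 and 9.07 in WT-HFD (−1.20, limma adjusted p = 0.330). The differences of both genes did not pass the test.

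By reads, limma-voom called Hexim2 lower on HFD in Casp11-/- mice, where 3.76% of 9728 genes were called. It had 8.38, 2.81 and 11.5 TPM in Casp11-/- NCD and 1.70, 1.80 and 2.11 in Casp11-/- HFD, with a log2 difference of −1.24 by reads (limma-voom adjusted p = 0.0465), whereas limma on 12 libraries gave an adjusted p of 0.538. In WT mice the voom difference was −0.40 (adjusted p = 0.519). Hexim2 was named after its values were seen.

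The signal recognition particle and its receptor, the partners of 7SL, made up a list of 10 genes. With limma and with limma-voom, 0 of 10 passed for diet in either genotype. The median log2 difference was −0.98 in WT mice, with 5 genes at an unadjusted p under 0.05, and −0.80 in Casp11-/- mice, with 2 such genes, by limma over 11 libraries, against 15.2% and 27% of all genes. Srp19, which helps Srp54 bind 7SL, had 23.4 and 23.0 TPM in WT-NCD and 9.32, 3.37 and 7.77 in WT-HFD (−1.72, limma, 11 libraries, adjusted p = 0.122). Srp14, which binds the Alu domain of 7SL, had 15.99 and 17.71 TPM in WT-NCD and 7.61, 4.36 and 16.4 in WT-HFD, so that WT-HFD replicate 3 lay between the WT-NCD values.

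Protein subunits of RNase P and RNase MRP gave 8 tested genes over 11 libraries, and 0 of 8 passed for diet with limma in either genotype. Their medians were −0.66 in WT mice, with 2 genes at an unadjusted p under 0.05, and −0.59 in Casp11-/- mice, with 1 such gene, against 15.2% and 27% of all genes. Rpp21, a protein subunit of RNase P, had 18.4 and 29.2 TPM in WT-NCD and 8.12, 2.89 and 12.7 in WT-HFD (−1.62, limma adjusted p = 0.214). Pop5, a subunit of both enzymes, was close to the lowest value in the files, at 2.03 and 3.59 TPM in WT-NCD and 1.65, 1.01 and 1.21 in WT-HFD. By limma-voom, 0 of 5 passed in either genotype.

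Proteins of paraspeckles and speckles, the bodies of Neat1 and Malat1, gave 16 tested genes. With limma over 11 libraries, 0 of 16 passed in either genotype, and the medians were −0.85 in WT mice and −0.95 in Casp11-/- mice, with 2 and 4 genes at an unadjusted p under 0.05, against 15.2% and 27% of all genes. Hnrnph3, an RNA-binding paraspeckle protein, had 2.26 and 2.61 TPM in WT-NCD and 1.90, 1.55 and 2.12 in WT-HFD. Cpsf6, a cleavage factor subunit found in paraspeckles, had 17.1 and 12.5 TPM in WT-NCD and 13.6, 13.6 and 19.7 in WT-HFD, with a log2 difference of 0.07 over 11 libraries. By limma-voom, 1 of 14 was called in Casp11-/- mice, against 3.76% of all genes. This was the paraspeckle protein Rbm14, with 32.2, 12.8 and 53.4 TPM on NCD and 5.16, 7.30 and 10.3 on HFD. Rbm14 differed by −1.34 by reads (limma-voom adjusted p = 0.0477, against 0.538 by limma on 12 libraries). It was named after its values were seen.

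Polymerase III, its initiation factors, its repressor Maf1 and the La protein Ssb gave 28 tested genes, and 0 of 28 passed for diet with limma in either genotype. Medians over 11 libraries were −0.67 in WT mice, with 6 genes at an unadjusted p under 0.05, and −0.95 in Casp11-/- mice, with 14 such genes, against 15.2% and 27% of all genes. Gtf3a, the factor that recognises 5S RNA genes, had 7.17 and 9.39 TPM in WT-NCD and 3.13, 1.01 and 3.76 in WT-HFD (−1.44, limma, 11 libraries, adjusted p = 0.232). Snapc2, a subunit of the complex that starts transcription of 7SK and U6 genes, had 7.79 and 7.99 TPM in WT-NCD and 1.54, 2.42 and 4.48 in WT-HFD (−1.29, limma adjusted p = 0.275). By limma-voom, 0 of 22 passed in either genotype.

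A list of other long noncoding RNAs made by polymerase II gave 16 tested genes, and 0 of 16 passed for diet with limma, with medians of −0.61 in WT mice and −0.62 in Casp11-/- mice and 3 genes at an unadjusted p under 0.05 in each, against 15.2% and 27% of all genes. Snhg12, a small nucleolar RNA host gene, had 6.75 and 11.9 TPM in WT-NCD and 2.95, 1.65 and 5.32 in WT-HFD (−1.31, limma, 11 libraries, adjusted p = 0.258). Snhg5, another such host gene, had 7.45 and 9.14 TPM in WT-NCD and 3.69, 1.65 and 2.82 in WT-HFD (−1.35, limma adjusted p = 0.232). Each of these partner lists had a median by TPM below that of all genes tested, −0.27 in WT and −0.51 in Casp11-/- mice, over 11 libraries. The all-gene median depended on the denominator. It was 0.36 in WT and −0.002 in Casp11-/- mice without U3, and 0.29 and −0.05 over protein-coding genes. The medians of the lists are given by TPM only, so nothing is read from their place below all genes.

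Of the other short structured RNAs, 12 were tested. By limma over 11 libraries, 1 of these was called for diet in WT mice, against 2.18% of all genes. It was Terc, the template RNA of telomerase. The median of the 12 was 0.13 in WT and 0.16 in Casp11-/- mice. Terc had 40.5 and 40.6 TPM in WT-NCD, 8.59, 5.32 and 11.8 in WT-HFD, 40.9, 42.3 and 46.1 in Casp11-/- NCD, and 14.4, 13.9 and 19.9 in Casp11-/- HFD. The 5 NCD libraries lay close together and each HFD library lay below them, and this separation of the diets held on the 4 scales used above. The same was true of 5.16% of all genes by TPM, 0.328% without U3, 3.2% over protein-coding TPM and 6% by reads. In WT mice the log2 difference was −2.17 with a standard error of 0.49 over 11 libraries (limma adjusted p = 0.0131), and it was −1.70 by reads (limma-voom adjusted p = 0.0379). Over protein-coding genes it was −1.48 (limma adjusted p = 0.0334), and without U3 −1.44 (limma adjusted p = 0.149). Over 12 libraries it was −2.09 with a standard error of 0.37 (limma adjusted p = 0.0692), and over the alternatives the adjusted p of limma ran from 0.0131 to 0.438. The smaller value belongs to the fit without WT-NCD replicate 3. That library lists Terc at 33.5 TPM, but it is nearly without reads and its values follow gene length. The 33.5 TPM is therefore not a measurement of Terc. The 12-library fit and the fits that left out other libraries include it.

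In Casp11-/- mice the difference of Terc was −1.39, and its adjusted p by limma was 0.538 over 12 libraries and 0.110 over 11. The interaction over 11 libraries was 0.79 with a standard error of 0.66 and was not called. Terc rested on 120 to 152 reads in 4 NCD libraries and 70 in the fifth, and on 9 to 93 reads in the HFD libraries, of which WT-HFD replicates 1 and 2 had 10 and 9. B cell markers moved in the same direction as Terc, with the sums given above, and their part in the result was not tested.

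Vaultrc5, a vault RNA, had 19.4 and 4.44 TPM in WT-NCD, 35.3, 57.7 and 57.9 in WT-HFD, 2.15, 2.72 and 42.5 in Casp11-/- NCD, and 97.6, 23.6 and 46.9 in Casp11-/- HFD. Limma-voom called it higher on HFD in Casp11-/- mice, by 3.47 on the log2 scale (limma-voom adjusted p = 0.0454), where 3.76% of all genes were called. Limma gave an adjusted p of 0.538 over 12 libraries and 0.0787 over 11. Vaultrc5 rested on 5, 7 and 56 reads in Casp11-/- NCD and on 85, 49 and 191 in Casp11-/- HFD. The value of Casp11-/- NCD replicate 3 fell within the range seen on HFD. Rnu12, the U12 RNA of the minor spliceosome, had 6.73 to 30.3 TPM on NCD and 8.23 to 19.7 TPM on HFD from 6 to 23 reads, and the diets overlapped.

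**Figure D5:**
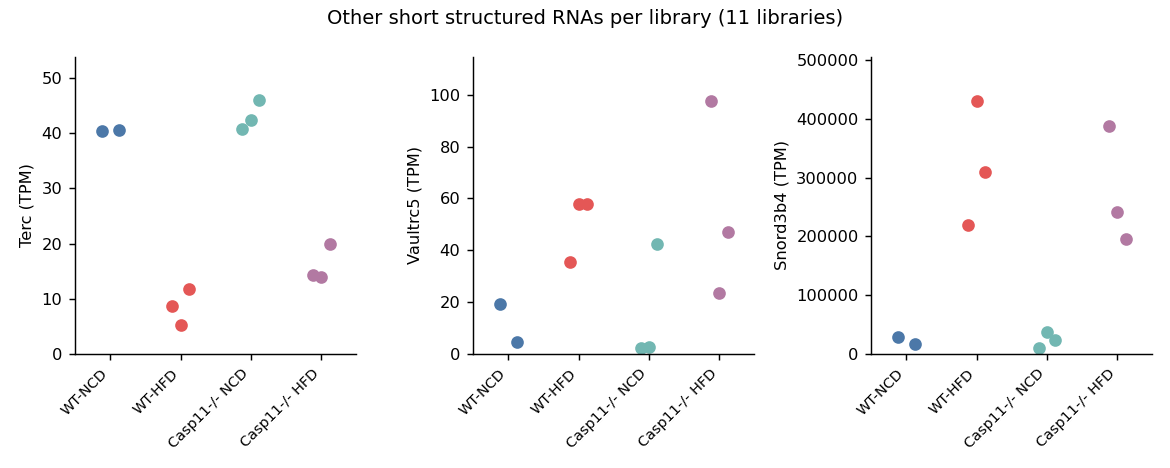
TPM (y axes) of Terc, Vaultrc5 and the U3 gene Snord3b4 in each library with reads (points), by genotype and diet (x axis). Terc lies between 40.5 and 46.1 in the 5 NCD libraries and between 5.32 and 19.9 in the 6 HFD libraries, Snord3b4 is higher in each HFD library than in each NCD library, and the diets overlap for Vaultrc5.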

How the data were processed

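Total RNA libraries of the liver immune cell fraction were made by the submitters with random priming (SMARTer Stranded Total RNA-Seq Pico), with ribosomal cDNA depleted, and sequenced as single-end reads. Per the labels and the submitters' processing notes, STAR and the builds mm10 and GRCm38.p6 were used. The deposited values, treated as a score, are TPM that the authors computed in Qlucore with a floor of 1.01. They cover 40840 genes, and 6 rows without a gene name in each file were left out.

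The members and gene lists were chosen with earlier results of these data known. WT-NCD replicate 3 gave a length for 39677 genes, since its values were a constant over length, and the deposited TPM times this length gave whole reads plus 0.5 in the other 11 libraries. The heading inside the file of Casp11-/- HFD replicate 2 names another sample label, and the file was used by its record. Groups came from sample titles, with 3 mice each. Groups were compared with limma 3.58.1 (R 4.3.3) with a trend on log2(TPM + 1), over genes that exceeded the floor in 3 or more libraries, on 12 libraries as the main fit, two-sided, with Benjamini-Hochberg adjustment over all genes and a call at 0.05. The 11-library fits, rescaling over protein-coding genes (21702) or without U3 in them, and limma-voom on reads were added after seeing the data, apart from leaving out each library in turn and rescaling over 12 libraries. Named were the members, per partner list the genes called in the 12-library fit or otherwise the 2 of smallest p for diet in WT mice, the 3 other short RNAs of highest mean, 3 genes most like each of 4 members, and Casp4. Before use, the limma code was checked on simulated data. Python 3.11.15, pandas 2.3.3, numpy 2.4.6 and matplotlib 3.10.9 were used. P-values weigh a group difference against the spread between these libraries, which in the 12-library fit includes WT-NCD replicate 3. The sequence of Rn7s1 and Rn7s2 is not reported here.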

Additional observations from a re-analysis of the deposited data

Results flagged for a closer look

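The interaction of diet and genotype was called for genes outside the set described here, which were named after their values were seen. Igkv3-9, an immunoglobulin kappa variable segment, differed between the genotypes in its response to diet by 2.84 on the log2 scale (SE 0.43, limma adjusted p = 0.0141) over the 11 libraries with reads, and by 2.57 (SE 0.34, limma adjusted p = 0.0468) when these were rescaled over protein-coding genes. Igfbp1, a binding protein of insulin-like growth factors, differed by 6.35 (SE 1.06, limma adjusted p = 0.00961) over 11 libraries rescaled without U3. In the 12-library fit, limma called 0 genes for the interaction, with 154 at an unadjusted p under 0.05, and limma-voom on reads called 0.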

How the results depend on the processing

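The count of 22 genes called for diet in WT mice became 39 with a pseudocount of 0.1, 5 when rescaled without U3, 53 over protein-coding genes, 0 with the spread of the 2 groups alone, and 0 to 391 when single libraries were left out, with the highest count without WT-NCD replicate 3. Over 11 libraries it was 332 without U3, 312 over protein-coding genes and 246 by limma-voom. For diet in Casp11-/- mice the count of 0 became 1 when rescaled without U3, 300 with the 2 groups alone, 0 to 198 with single libraries left out, and 552, 397 and 366 in the 3 added fits. For genotype on NCD it became 0 to 10 with single libraries left out, and 16, 11 and 1, and for genotype on HFD 15 with the 2 groups alone. For the interaction it became 0 to 1 with single libraries left out, and 1, 1 and 0. These larger counts came mostly with WT-NCD replicate 3 left out.

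Deviations from the group correlated with r from −0.642 to 0.470 in 18 same-numbered pairs of libraries and from −0.645 to 0.662 in 36 differently numbered pairs. These pairs include WT-NCD replicate 3, so they cannot show whether same-numbered libraries deviate together. The replicate block gave 0 calls in place of 22 for diet in WT mice and 0 in the other comparisons.

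The share of TPM held by the members differed between diets (HFD minus NCD) in Casp11-/- mice by −16.1 percentage points, by 1.67 without U3, by −1.95 as a share of reads, and by −21.7 to −8.80 with single libraries left out. In WT mice it differed by −2.98 points over all libraries, where WT-NCD replicate 3 enters at 0.0221%, and by −18.8 without that library. Leaving out other single libraries gave −9.03 to 5.35. It differed by 17.1 without U3 over all libraries and by −1.45 as a share of reads over 11 libraries. Without U3 over 11 libraries, the mean share was 48.9% in WT-NCD and 49.7% in WT-HFD. Of 584 alternative values of the members' log2 differences, 44 had the opposite sign to the 12-library fit. That fit and most of the alternatives include WT-NCD replicate 3, so the count does not show how stable the differences are. For diet in WT mice, the difference of Rn7sk was positive in that fit and −1.67 to −0.85 over 11 libraries. Hexim1 turned to 0.0065 and Hnrnph3 to 0.039 without U3, and Hnrnph3 to 0.31 and 0.24 over 11 libraries without U3 and over protein-coding genes. Rnu12 lay between −1.20 and 0.50 with single libraries left out, the highest without WT-NCD replicate 3, and turned to 0.25 without U3 and to 1.27, 1.19 and 1.13 in the added 11-library fits. The cause of these changes was not tested.

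Depth limits Terc, Rnu12 and Pop5, which rest on few reads in HFD libraries. It also limits Vaultrc5, which had 5 to 56 reads in the NCD libraries with reads and 37 to 191 in the HFD libraries. Values at the floor hide any difference below it.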

Other observations

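Casp11-/- NCD replicate 2 stood apart within its group for several members. It had the lowest Rn7sk of the NCD libraries with reads (68319 TPM), the highest 7SL share (52.8%) and the highest Neat1 (184.5 TPM). The protein-coding share of its TPM was 22.3%, against 33.9% to 42.4% in the other NCD libraries with reads.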
